A study of Mus musculus with 18 samples.

Results

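The 9 genes described here, Fabp3, Fabp4, Fabp5, Rbp4, Rbp7, Crabp1, Crabp2, Apod and Lcn2, encode small carriers of fatty acids, retinoids, steroids and iron chelators that share one barrel-like fold. They are 9 of the 31053 features counted in 18 single-cell RNA-seq libraries of the mouse mammary gland. The members were chosen by measured values of these libraries: the rise of Fabp3 and the fall of Apod in luminal progenitor (LP) and alveolar cells between the adult gland and pregnancy, the level of Fabp4 in endothelium and the level of Crabp1 in skin. Those values are therefore given as descriptions without a test. All 9 genes are accounted for, and each was detected in at least 1 epithelial class.

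The study followed the mammary epithelium from the embryo to the gland after involution, and its 18 libraries fell into 13 groups. From C57BL/6 mice came the E18.5 mammary rudiment and E18.5 adjacent skin (Lgr5-GFP embryos), the gland 5 days after birth, the pre-pubertal gland at 2.5 weeks, microdissected ducts and terminal end buds (TEBs) of E-cadherin-GFP females aged 5 weeks, and the virgin adult at 10 weeks, with 1 library each. SWISS virgin adults of 10 weeks gave 1 library. FVB/NJ mice gave 3 libraries of the virgin adult at 10 weeks (A10, P7 and D12), 2 of pregnancy day 12.5 (H and G), 2 of pregnancy day 18.5 (F4 and B4), 2 of lactation day 10 (F11 and D6) and 1 of the gland labelled 3 weeks post-involution. Postnatal cells were sorted after depletion of cells bearing Ter119, CD31 or CD45, which mark erythroid, endothelial and immune cells, and each library pooled several mice. The study describes the replicates as biological, and p-values measure the spread between these libraries. Among the FVB/NJ stages, the study lists only adult and post-involution glands as processed together. It states no shared processing for the pregnancy and lactation libraries, and the part of processing runs in the stage steps was not tested. The adult library P7 also differs in barcode length, as given further below.

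The 2 protein families divide the work of moving lipids. Fatty acid-binding proteins (FABPs), the cellular retinoic acid-binding proteins and Rbp7 sit inside cells and hand hydrophobic ligands to membranes, enzymes and nuclear receptors. Lipocalins such as Rbp4, Apod and Lcn2 are secreted. Fabp3, the heart-type FABP, was purified from lactating mammary gland under the name mammary-derived growth inhibitor and accompanies milk fat synthesis. Fabp4 is the adipocyte and microvascular FABP, and Fabp5 the epidermal one. Rbp4 carries retinol in blood, Rbp7 binds retinol in adipocytes and endothelium, Crabp1 and Crabp2 bind retinoic acid, Apod carries small lipids, and Lcn2 captures bacterial siderophores.

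In the GENCODE annotation of GRCm38, Fabp3 lay on chromosome 4 from 130308595 to 130315463 on the plus strand, with 4 coding exons and 133 residues. The other intracellular members had the same plan: Fabp4 (132 residues), Fabp5 (135), Rbp7 (134), Crabp1 (137) and Crabp2 (138) all had 4 coding exons. Of the secreted members, Rbp4 had 6 coding exons and up to 245 residues, Apod 4 and 189, and Lcn2 6 and 200. Fabp4 (chromosome 3, 10204088 to 10208576, minus strand) and Fabp5 (chromosome 3, 10012548 to 10016607, plus strand) lay on the same chromosome, with Pmp2 and Fabp9 between them. A processed copy, Fabp3-ps1, lies on chromosome 10 from 86731987 to 86732388, and reads that match both loci could have been divided between them.

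The bases in front of Fabp3, Apod and Crabp1 are shown as those of 3 members with different time courses, in pregnancy, in the virgin gland and in the embryo and newborn. Each run is the part of the 250 bases before the RefSeq start site that lies outside the GENCODE gene, on the gene's own strand, from RefSeq on GRCm38.p6. The Fabp3 run covers chr4:130308488-130308594, the Apod run chr16:31314809-31315058 (minus strand) and the Crabp1 run chr9:54764498-54764747. Capitals mark TTTAAA, which resembles a TATA box.
Fabp3: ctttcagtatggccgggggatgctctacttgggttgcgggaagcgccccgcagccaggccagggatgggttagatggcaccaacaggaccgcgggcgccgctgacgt
Apod: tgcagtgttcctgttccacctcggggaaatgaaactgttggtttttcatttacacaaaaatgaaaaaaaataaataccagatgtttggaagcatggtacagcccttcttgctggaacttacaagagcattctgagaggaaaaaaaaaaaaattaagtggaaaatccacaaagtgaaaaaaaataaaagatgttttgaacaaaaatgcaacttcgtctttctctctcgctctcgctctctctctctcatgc
Crabp1: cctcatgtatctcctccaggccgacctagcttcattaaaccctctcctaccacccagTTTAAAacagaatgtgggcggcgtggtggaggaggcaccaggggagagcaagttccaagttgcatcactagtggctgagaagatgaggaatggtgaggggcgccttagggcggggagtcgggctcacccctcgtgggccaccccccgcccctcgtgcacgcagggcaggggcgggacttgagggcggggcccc

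Of the 9 members, 6 had an entry among these RefSeq windows. The Fabp3 window also held TTTAAA at position -27 from its RefSeq start, past the run printed above, and the Rbp7 window at -238. An Rbp4 window that lies inside the GENCODE gene held TATAAA at -28, and the Rbp4 window in front of the gene held none. TTTAAA was present in 12.08% and TATAAA in 12.37% of all 32851 windows, searched on both strands. None of the windows of the 6 members held TTCNNNGAA, the core that STAT factors bind (7.02% of all windows), AGGTCA (14.02%) or AGAACA (16.08%), the half-sites of nuclear and steroid receptors. A match or its absence describes these letters only.

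After removal of low-quality barcodes, 132599 of 149371 cells remained, and a library's total ran from 9920346 to 93234616 unique molecular identifiers (UMIs) with a median of 2498 to 21609 UMIs per cell. Cells were clustered without the 9 genes, the other lists of this text or the milk genes, and clusters were named from marker genes, and 10664 cells (8.04%) stayed in unnamed clusters. The basal class held 43717 cells, LP/alveolar 38473 and mature luminal (ML) 19965, each in 16 libraries, and the E18.5 libraries held 5259 epithelial cells. The E18.5 skin library is labelled as epidermis, but 147 of its 9025 cells were epidermal and 2936 were fibroblasts. The FVB/NJ endothelial cluster also raised 5 of 6 mural markers and had haemoglobin genes among its leading genes. Levels are CPM, the UMIs of a gene scaled to 1000000 UMIs of its class in a library, with exact Poisson intervals that cover counting error only; UMI counts of a 3' assay were compared within a gene and between cell classes, not between genes of different length.

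The highest medians over named classes fell in several classes, and the libraries behind a class median differ in stage. The median level of Fabp4 over 7 libraries with endothelial cells was 21580 CPM, against 4.10 CPM in LP/alveolar cells. Rbp7 and Fabp5 had their highest class median in endothelium as well (2199 and 1649 CPM). Rbp4 had it in adipocytes (719 CPM over 4 libraries, of E18.5 or lactation) and Apod in fibroblasts (221 CPM over 12 libraries). For Fabp3 it lay in immune cells (455 CPM over 4 libraries, of virgin adults or lactation). LP/alveolar cells had a Fabp3 median of 7.14 CPM over 16 libraries, most of them not from pregnancy or lactation. Lcn2 was highest in LP/alveolar (2455 CPM) and basal cells (1119 CPM), and Crabp2 in LP/alveolar cells (60.7 CPM). Crabp1 was at 0 in all 7 endothelial and all 4 immune sums. Because clusters define the classes, these differences were not tested.

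**Figure D1:**
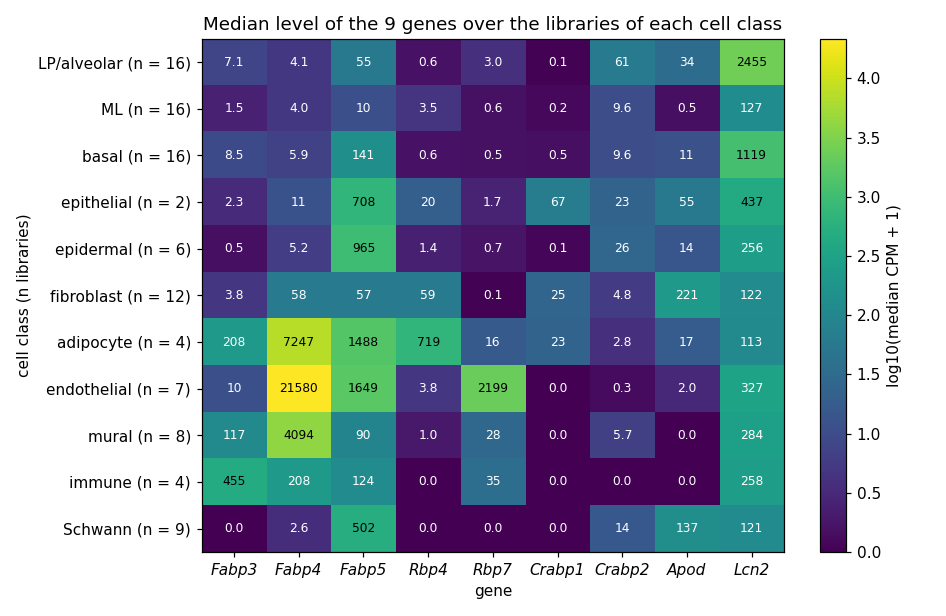
Median CPM of each of the 9 genes (columns) over the libraries that hold 20 or more cells of a class (rows, n libraries beside each name); the colour is log10 of the median CPM plus 1 and the printed number the median CPM. Fabp4 in endothelial cells (21580 CPM) is the highest median, and Crabp1 is at 0.0 in endothelial, mural, immune and Schwann cells.

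Stage changes were tested in the 3 epithelial classes over the 9 FVB/NJ libraries with replicates, using edgeR's quasi-likelihood test on counts summed per library with Benjamini-Hochberg adjustment over all genes (called at an adjusted p under 0.05). In basal cells, 1 of 9 members was called between adult and pregnancy day 12.5 (Fabp3), against 1.24% of all genes tested. Between day 12.5 and day 18.5, edgeR called 0 of 9 in basal cells (0% of all genes). At that step 3 members had an unadjusted p under 0.05 (1162 of all 13307 genes), and DESeq2 called 2 (178 of all genes). From day 18.5 to lactation, 1 of 9 was called in basal cells (Rbp7), against 0.864% of all genes. In LP/alveolar cells the step from adult to day 12.5 chose members, so its 13.1% of all genes called stands here as background only. The same libraries gave the basal and ML tests of that step, so their Fabp3 calls are not independent of the choice.

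Between day 12.5 and day 18.5, edgeR called 0 of the 6 members tested in LP/alveolar cells, against 1.03% of all genes. At an unadjusted p under 0.05 there were 0 members (2109 of all 13473 genes), and DESeq2 called 0 (751 of all genes). Rbp4, 1 of the 6, had 0 UMIs at both stages and so could not be called. From day 18.5 to lactation, 3 of 6 were called in LP/alveolar cells (Fabp4, Rbp4 and Rbp7, all up), against 3.24% of all genes; Fabp3 and Apod were not tested there and Crabp1 fell below the count filter. In ML cells, 1 of the 6 members that passed the filter was called between adult and day 12.5 (Fabp3), against 8.9% of all genes. edgeR called 0 of 6 in ML cells between day 12.5 and day 18.5 (0% of all genes). There 1 member had an unadjusted p under 0.05 (709 of all 9544 genes), and DESeq2 called 0 (69 of all genes). Between day 18.5 and lactation edgeR also called 0 of 6 (0.021% of all genes). Here 5 members had an unadjusted p under 0.05 (709 of all 9544 genes), and DESeq2 called 4 (79 of all genes). In ML cells Rbp4, Crabp1 and Apod were below the filter. Neighbouring steps share the libraries of a stage, so they are not independent of each other.

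Milk transcripts set the scale of every level in the secretory gland. The 8 milk genes (6 casein and whey genes, Lalba and Glycam1) took 14.1% and 15.0% of LP/alveolar UMIs at day 12.5, 35.1% and 36.5% at day 18.5 and 77.4% and 78.2% in lactation. Levels for pregnancy and lactation are therefore also given as CPM outside the milk genes. The fits scaled libraries with TMM factors, which put the median change of all genes in LP/alveolar cells from day 18.5 to lactation at -0.02 on the log2 scale. With plain library totals that median was -1.75, and the share of called genes that rose went from 69.11% to 1.91%. The same exchange moved the median to -0.58 in basal and -0.72 in ML cells at that step, and the share that rose from 88.7% to 60.61% of basal calls and from 2 of 2 to 2 of 4 ML calls. In LP/alveolar cells it moved the median to -0.49 between day 12.5 and day 18.5, where the share that rose went from 81.29% to 27.35%, and to -0.33 between adult and day 12.5, where it went from 46.65% to 26.03%.

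Fabp3 in LP/alveolar cells was low in every virgin library and high in pregnancy and lactation. In the adult, it stood at 7.88 CPM (A10), 3.93 CPM (P7) and 1.59 CPM (D12). At pregnancy day 12.5 it was at 2196 CPM (H) and 2373 CPM (G), and at day 18.5 at 6939 CPM (F4) and 4748 CPM (B4). In lactation it was at 5154 CPM (F11) and 2926 CPM (D6), and outside the milk genes at 22767 and 13420 CPM, against 10698 and 7477 CPM at day 18.5. No library of 1 stage overlapped the next in the levels outside the milk genes. The difference between adult and day 12.5, which chose the gene, was 9.19 on the log2 scale (135 against 119645 UMIs). It ran from 8.748 to 10.267 with 1 library left out at a time. The difference from day 12.5 to day 18.5 was 1.84. From day 18.5 to lactation the log2 difference was 1.20 with TMM scaling and -0.53 with library totals, so its direction depends on the scaling.

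**Figure D2:**
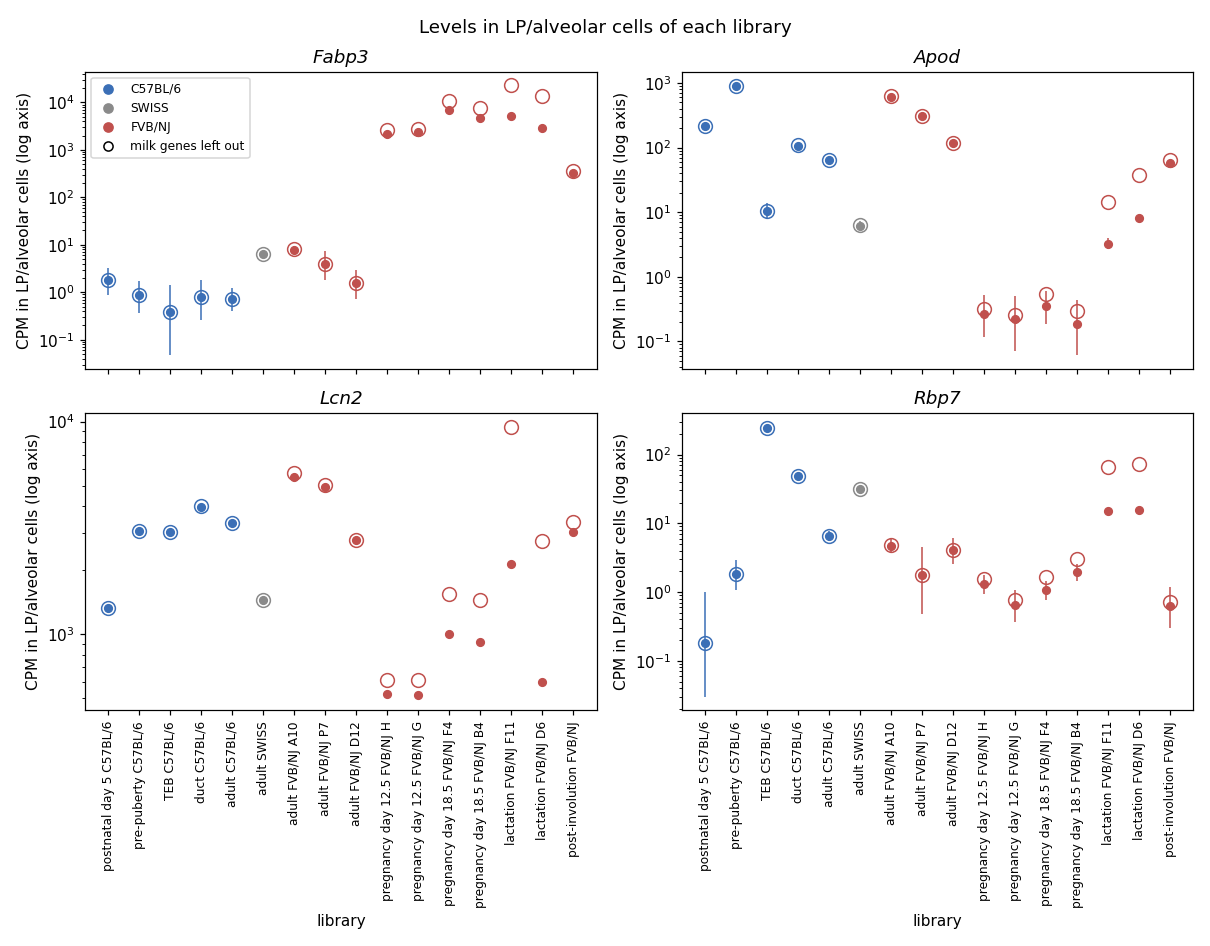
Levels of Fabp3, Apod, Lcn2 and Rbp7 in the LP/alveolar cells of 16 libraries (x axis), as CPM on a log axis; filled points are CPM with 95% Poisson intervals, open circles CPM outside the 8 milk genes. Fabp3 stays at or under 7.88 CPM in the virgin libraries and reaches 6939 CPM at pregnancy day 18.5, while Apod is under 1 CPM in all 4 pregnancy libraries.

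The transcript was found in most alveolar cells of late pregnancy and lactation. With each cell thinned to 1500 UMIs, Fabp3 was detected in 72.4% (H) and 70.4% (G) of LP/alveolar cells at day 12.5, in 98.5% (F4) and 93.2% (B4) at day 18.5 and in 99.1% (F11) and 95.8% (D6) in lactation. In the 3 adult FVB/NJ libraries it was detected in 0.547%, 0.313% and 0.16%. Fabp3 also remained above the virgin level after involution, at 324 CPM (9.34% of cells). There the transcript was unevenly spread: the top 5% of LP/alveolar cells held 87.8% of its UMIs, against 14.5% in F4 at day 18.5. Outside the FVB/NJ strain, the virgin levels were 0.727 CPM in C57BL/6 and 6.40 CPM in SWISS.

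Fabp3 counts were higher at day 12.5 in ML cells as well. The gene was chosen for its rise at this step in LP/alveolar cells of the same libraries. Its ML and basal calls are therefore not independent of that choice. In ML cells Fabp3 went from 32 UMIs over 3 adult libraries (0.336, 0 and 1.73 CPM in A10, P7 and D12) to 506 CPM (H) and 311 CPM (G) at day 12.5. The groups did not overlap. The log2 change was 8.88 ± 1.13 (SE; edgeR, adjusted p = 0.000952), and it was called under all 15 alternatives, which include leaving out each of the 9 libraries in turn. The ML UMIs were unevenly spread: at day 12.5, 10 of 210 cells held 57.81% of the 557 UMIs in H and 14 of 288 held 53.9% of the 449 in G, against 23.8% and 24.7% in the top 5% of LP/alveolar cells. In basal cells, Fabp3 was at 2.93, 6.84 and 4.11 CPM in the adult libraries and at 231 and 164 CPM at day 12.5. That log2 change of 5.62 ± 0.91 (adjusted p = 0.0237) lost its call when D12, G, H, B4 or F4 was left out, with an adjusted p of up to 0.152. A single fit over the 3 epithelial classes, added after the data were seen, tested whether a change differed between classes. For Fabp3 the ML change less the basal change was 3.00 ± 0.97 on the log2 scale and missed the threshold (adjusted p = 0.0527; 11.3% of all genes called).

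Fabp3 UMIs were also found in cells of other lineages, in step with milk UMIs. In the lactation library F11, there were 6.66 Fabp3 UMIs per 1000 milk UMIs in LP/alveolar cells, 10.6 in ML, 10.1 in basal, 11.5 in immune, 12.03 in endothelial and 10.4 in adipocyte cells. In D6 the same ratio was 3.74 in LP/alveolar, 4.10 in ML, 4.86 in basal, 4.01 in immune and 6.41 in endothelial cells. At day 12.5 it was 15.5 (H) and 15.8 (G) in LP/alveolar, 16.3 and 16.1 in ML and 22.9 and 20.5 in basal cells. Immune cells, which do not make milk, had Fabp3 in 100% (F11) and 42.1% (D6) of thinned cells in lactation, against 97.9% and 50.8% of ML cells. The ML share was below the immune share in F11, where the immune class had 41 cells, and above it in D6. The pregnancy libraries held 1 or 2 immune cells each, and the part of free RNA in the ML and basal rise was not tested. Mural cells, the contractile cells around small vessels, had Fabp3 at 1067 CPM (F4) and 208 CPM (B4) at day 18.5, beside 884 and 381 CPM in basal cells.

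**Figure D3:**
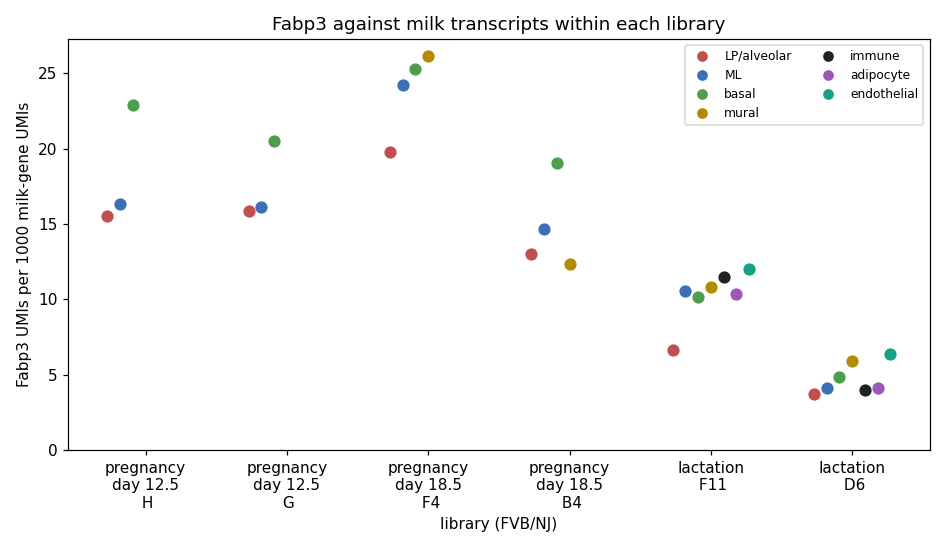
Fabp3 UMIs per 1000 UMIs of the 8 milk genes (y axis) in 7 cell classes, where a library holds 20 or more cells of one, for the 6 FVB/NJ libraries of pregnancy and lactation (x axis); each point is 1 class of 1 library. In F11 the plotted classes other than LP/alveolar lie between 10.1 and 12.03, and in D6 between 4.01 and 6.41.

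Fabp4 was the vascular and fat-cell member. In endothelial cells it stood at 17196 CPM (A10) and 4601 CPM (P7) in the FVB/NJ adult, 12664 CPM in C57BL/6, 23515 CPM in SWISS, 23700 CPM (F11) and 38550 CPM (D6) in lactation and 21584 CPM after involution. The lowest value came from P7, the library with the fewest UMIs, and from 20 cells. Among mural cells the level ran from 1170 CPM (P7) to 16763 CPM (D6), and adipocytes of lactation had 13647 (F11) and 18813 CPM (D6). Embryonic adipocytes held less, 847 CPM in the mammary rudiment and 317 CPM in skin. The pregnancy libraries kept 6 to 14 endothelial cells each, too few for a level.

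In LP/alveolar cells Fabp4 was low until lactation. It was at 3.73 (H) and 2.76 CPM (G) at day 12.5, at 11.6 (F4) and 7.10 CPM (B4) at day 18.5 and at 168 (F11) and 160 CPM (D6) in lactation, and these 3 stages did not overlap. The adult libraries, at 10.9, 0 and 0.705 CPM, overlapped with day 12.5. The change from day 18.5 to lactation was 5.88 ± 1.30 on the log2 scale (edgeR, adjusted p = 0.0415), 4.13 with library totals. It lost its call when any 1 of D6, F11, G, H, B4 or F4 was left out (adjusted p up to 0.334). In basal cells the log2 change was 5.93 ± 1.24 and missed the threshold (adjusted p = 0.0608), and in ML cells it was 5.14 ± 0.93 (adjusted p = 0.121), both with edgeR. DESeq2 called both (adjusted p = 0.00422 and 6.687e-07), as did edgeR without A10 or without P7. In D6, 20 of 409 basal cells held 76.6% of the Fabp4 UMIs.

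Markers of other cells moved with it. The 8 endothelial markers summed to 3.23 to 4.55 CPM outside the milk genes in LP/alveolar cells at day 18.5 and to 37.7 (F11) and 60.9 CPM (D6) in lactation, with 1 and 2 of 8 markers at 0 at day 18.5 and none in lactation. The 6 adipocyte markers went from 13.2 and 17.4 CPM to 75.7 and 61.0 CPM. Of thinned LP/alveolar cells in lactation, 21.8% (F11) and 17.1% (D6) held Fabp4, below the 46.3% and 29.9% of immune cells in the same libraries, where the median cell held 9276 and 18421 UMIs in the LP/alveolar class and 2621 and 3012 UMIs in the immune class before thinning. Whether the immune cells make Fabp4 themselves was not tested.

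Rbp7 was likewise highest in vessels. Endothelial cells had 2437 (A10) and 2199 CPM (P7) in the FVB/NJ adult, 545 CPM in C57BL/6, 1404 CPM in SWISS, 4398 (F11) and 5872 CPM (D6) in lactation and 2073 CPM after involution. Adipocytes held far less, 30.5 (F11) and 58.6 CPM (D6) in lactation, so Rbp7 and Fabp4 parted in fat cells: D6 had 321 Fabp4 UMIs per Rbp7 UMI in adipocytes and 6.57 in endothelium. Mural cells reached 1804 CPM in D6 and 270 CPM in F11. Endothelial markers in the mural class summed to 1613 (D6) and 498 CPM (F11) outside the milk genes. In the adult they summed to 203 (A10) and 499 CPM (P7). The part of endothelial cells in the mural levels was not tested.

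Rbp7 was called from day 18.5 to lactation in both LP/alveolar and basal cells. LP/alveolar cells went from 1.07 (F4) and 1.94 CPM (B4) to 15.1 (F11) and 15.8 CPM (D6), a log2 change of 5.09 ± 0.56 (adjusted p = 0.00203), or 3.36 with library totals; without F4 the adjusted p was 0.0726. The endothelial markers given for Fabp4 were higher in the same cells, with 1.77 (F11) and 1.19 (D6) Rbp7 UMIs per endothelial-marker UMI in lactation, against 1.33 and 1.28 in the endothelial class, and 0.364 (F4) and 0.946 (B4) in LP/alveolar cells at day 18.5. Basal cells went from 4.44 (F4) and 3.43 CPM (B4) to 55.5 (F11) and 384 CPM (D6), a log2 change of 6.07 ± 0.66 (adjusted p = 0.00787), lost without B4 (0.295) or F4 (0.178), and 4.74 without D6 to 6.69 without F11. In basal cells, the top 44 of 870 cells held 79.8% of the 99 UMIs in F11, and the top 20 of 409 held 75.9% of the 373 in D6. Both libraries had fewer of these UMIs than cells, where the top cells hold a large share under an even scatter too. The groups did not overlap in either class. The share of thinned cells with Rbp7 in lactation was 2.10% (F11) and 2.12% (D6) in LP/alveolar cells, under the 9.76% and 4.98% of immune cells, and 5.86% and 14.9% in basal cells, above immune cells in D6 only. The basal cells of D6 also held 408 CPM of endothelial markers outside the milk genes, against 69.0 CPM in F11 and 4.56 to 7.66 CPM at day 18.5; the part of such cells in the rise was not tested.

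**Figure D4:**
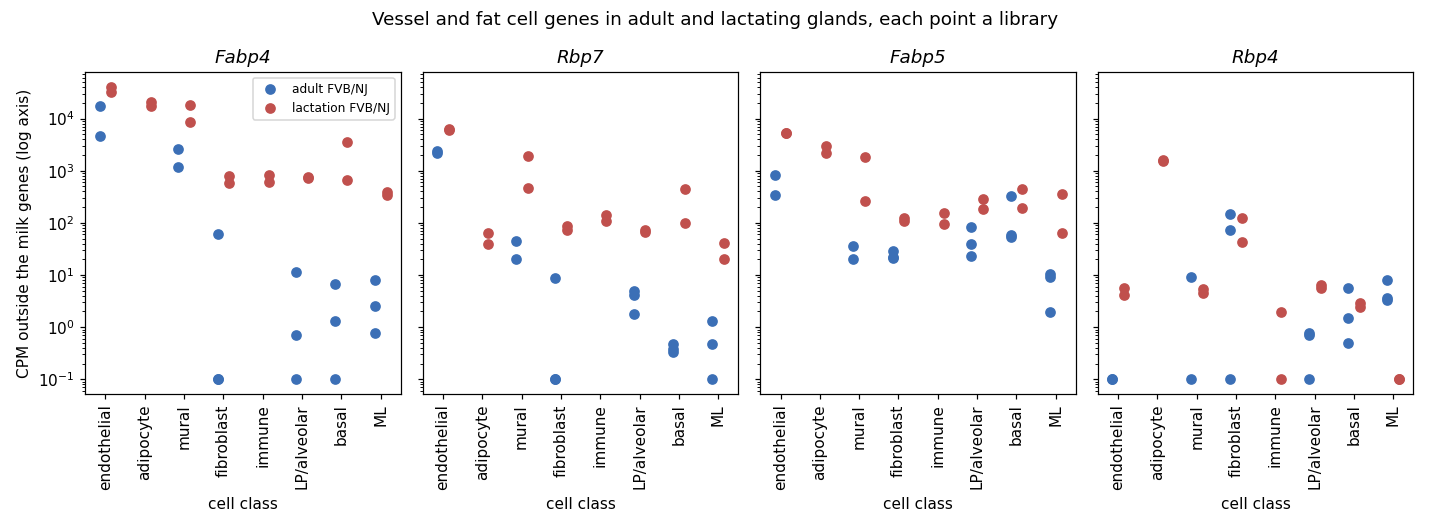
CPM outside the 8 milk genes (log axis) of Fabp4, Rbp7, Fabp5 and Rbp4 in 8 cell classes of the adult (blue) and lactating (red) FVB/NJ gland, each point 1 library with 20 or more cells; points on the lowest line are libraries with 0 UMIs, drawn at 0.1. Fabp4 and Rbp7 peak in endothelium (up to 41189 and 6274 CPM), Rbp4 in adipocytes (1504 and 1624 CPM), and both Fabp4 and Rbp7 are higher in lactation in every epithelial class.

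Before pregnancy, LP cells had an Rbp7 pattern of their own. TEB LP cells stood at 240 CPM (95% interval 227 to 254), duct LP cells at 48.7 CPM (43.5 to 54.5), SWISS adult LP cells at 31.3 CPM and C57BL/6 adult LP cells at 6.60 CPM. The 3 adult FVB/NJ libraries lay between 1.75 and 4.72 CPM, and the day 5 and pre-pubertal LP cells at 0.179 and 1.84 CPM. Rbp7 was detected in 19.2% of thinned TEB LP cells and 3.36% of duct LP cells, against 0.211% and 0.133% of basal cells in the same libraries. TEB and duct were 1 library each, so the difference has no replicate check.

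Fabp5 was the most widely expressed member, with no sum at 0 among the 140 sums of a library and class. In basal cells it ran from 45.6 CPM (B4) to 1006 CPM (SWISS adult; interval 993 to 1019), and in ML cells from 1.20 to 247 CPM. Among the virgin adults, basal Fabp5 was 193 CPM in C57BL/6 and 54.5 to 322 CPM in the FVB/NJ libraries. SWISS also had the highest LP/alveolar level, 403 CPM, against 56.1 CPM in C57BL/6 and 22.3 to 80.8 CPM in FVB/NJ. TEB basal cells had 926 CPM and duct basal cells 168 CPM, with 69.9% and 13.3% of thinned cells positive. C57BL/6, SWISS, TEB and duct had 1 library each, so these orders are descriptions.

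Epidermal cells of the E18.5 mammary library had Fabp5 at 3763 CPM, the skin's at 1167 CPM and those of day 5 at 1414 CPM. Endothelial Fabp5 ran from 338 CPM (P7) to 4986 CPM (D6), and Schwann cells from 112 to 2773 CPM. The highest of the 140 sums was an unnamed FVB/NJ cluster led by Elovl4 and Upk3a, at 8029 CPM in D6 from 92 cells. In F11 the same cluster had 53.8 CPM from 42 cells, so 1 library carried that value. With edgeR Fabp5 was not called at any step, while DESeq2 called it in ML cells at day 12.5 (adjusted p = 0.0144) and in ML (6.397e-05) and LP/alveolar cells (0.0173) in lactation. Its largest change was in ML cells from day 18.5 to lactation, 4.64 ± 0.99 on the log2 scale (adjusted p = 0.179), from 28 to 216 UMIs. Of these 216, 174 came from D6, where 10 of 206 cells held 69.0% of them, and the change was 2.97 without D6 and 5.597 without F4.

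Between adult and day 12.5, Fabp5 shifted differently in ML and basal cells. ML cells went from 10.5, 1.97 and 9.07 CPM in the adult libraries to 41.8 (H) and 48.5 CPM (G), a log2 change of 2.45 ± 0.77 (adjusted p = 0.0752). In basal cells it was 322, 59.7 and 54.5 CPM in the adult and 146 and 136 CPM at day 12.5, with a log2 change of -0.02 that turned to 1.501 without A10. The difference between both changes was 2.05 ± 0.56 (adjusted p = 0.0234), in a fit that called 11.3% of all genes for that difference. LP/alveolar cells held 22.3 to 80.8 CPM in the adult and 121 and 132 CPM at day 12.5.

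Rbp4, the plasma retinol carrier, was a fat-cell transcript in lactation. Adipocytes held 1282 (F11) and 1354 CPM (D6), against 156 CPM in the adipocytes of E18.5 skin and 124 CPM in those of the rudiment. Fibroblasts ranged from 0 to 157 CPM over 12 libraries. Within the virgin epithelium, Rbp4 was found at low level in ML cells, from 3.36 CPM (A10) to 20.4 CPM (TEB) over the 9 libraries before pregnancy. At day 12.5 ML cells had 0 of 2542708 UMIs, against 201 UMIs in the adult libraries. With a floor of 3 UMIs over the stage, this was at least 4.39-fold lower in pregnancy, and the gene was below the filter of the test.

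In LP/alveolar cells Rbp4 went from 0 UMIs at day 18.5 to 142 in lactation, 1.48 CPM in F11 and 1.25 CPM in D6, at least 28.3-fold higher than a floor of 3 UMIs over the day 18.5 libraries. edgeR called it (adjusted p = 0.00484), and the call was lost without B4 (0.0623) or F4 (0.0781). Rbp4 was detected in 0.090% and 0.289% of thinned LP/alveolar cells, against 0% and 0.312% of immune cells. Per adipocyte-marker UMI there were 0.086 Rbp4 UMIs in the LP/alveolar cells of F11 and 0.145 in its adipocytes, and 0.094 and 0.196 in D6. The part of adipocyte RNA in the rise was not tested.

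Crabp1 was a gene of the embryonic dermis and the newborn gland. In E18.5 skin its highest level was in an unnamed cluster led by Apela, Twist2 and Cyp26b1, at 592 CPM from 1652 cells (interval 574 to 611). Cyp26b1 encodes an enzyme that degrades retinoic acid, the ligand of Crabp1. A cluster led by Ibsp, Rspo3 and Bmp3 had 411 CPM, fibroblasts 232 CPM, Schwann cells 92.3 CPM and epidermal cells 48.1 CPM. In the mammary rudiment the first cluster had 202 CPM from 65 cells, fibroblasts 58.5 CPM and epithelial cells 2.54 CPM, while the 367 epithelial cells of the skin library had 131 CPM. Unnamed clusters at 102 and 84.3 CPM in skin were at 5.02 and 7.57 CPM in the rudiment. The part of free RNA in the levels of the skin library was not tested.

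At postnatal day 5, Crabp1 was found in luminal cells. ML cells had 166 CPM (interval 152 to 180), with 18.5% of thinned cells positive, LP cells 47.7 CPM (3.97% positive), basal cells 1.13 CPM and epidermal cells 0.259 CPM. The LP class of that library joins 2 clusters of 20 or more cells, and 264 of its 266 Crabp1 UMIs came from the one of 181 cells (81.7 CPM, with 13 Rbp4 UMIs), while the main LP cluster of 261 cells had 2 UMIs (0.907 CPM). Fibroblasts of that library had 500 CPM, with 43.5% positive. The erythroid class of that library held 227 CPM of Crabp1 as well as 119 CPM of Apod and 283 CPM of Lcn2. Its cluster was led by haemoglobin genes, but its median cell held 19171 UMIs, more than any other class of 20 or more cells in that library, so the name is uncertain for these 53 cells. At 2.5 weeks ML cells had 6.96 CPM, and from TEB to post-involution no LP or ML sum passed 1.94 CPM. Day 5 and pre-puberty were 1 library each.

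**Figure D5:**
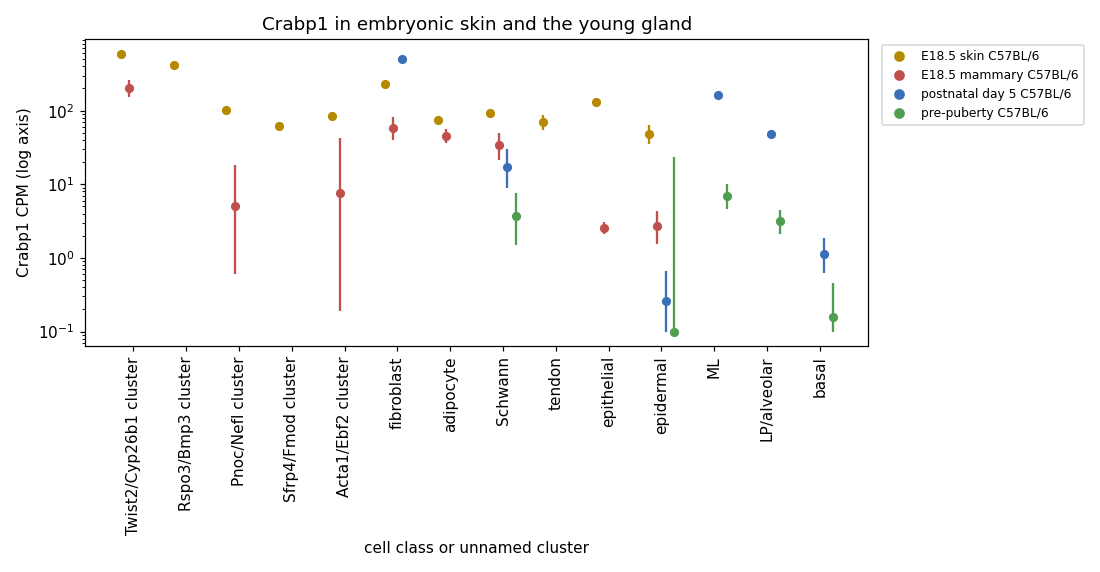
Crabp1 CPM (log axis) by cell class or unnamed cluster in the E18.5 skin, E18.5 mammary, day 5 and pre-pubertal libraries of C57BL/6 mice; each point is 1 library with its 95% Poisson interval, a library at 0 and the low end of an interval under it are drawn at 0.1, and erythroid cells are left out. The skin's Twist2/Cyp26b1 cluster (592 CPM) and the day 5 fibroblasts (500 CPM) are the highest points, and day 5 ML cells (166 CPM) stand above LP (47.7 CPM, from clusters at 81.7 and 0.907 CPM) and basal cells (1.13 CPM).

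Crabp1 was found again, at a lower level, in late pregnancy. Basal cells had 0.860 (H) and 1.44 CPM (G) at day 12.5, 15.6 (F4) and 5.202 CPM (B4) at day 18.5 and 0.561 (F11) and 2.06 CPM (D6) in lactation. The stages did not overlap between day 12.5 and day 18.5, and the log2 change was 3.05 ± 0.63, but it missed the threshold (edgeR, adjusted p = 0.180; DESeq2, 0.00664). With 1 library left out at a time, the change ran from 1.968 to 3.657. In F4, 2.28% of thinned basal cells held Crabp1, and in B4 0.649%. Fibroblasts of F4 had 84.9 CPM, and those of lactation 39.7 (F11) and 64.1 CPM (D6).

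Crabp2, the paralogue that delivers retinoic acid to its nuclear receptors, was a luminal progenitor transcript. LP/alveolar cells had 27.1 CPM at day 5, 34.9 CPM before puberty, 113 CPM in TEBs, 96.4 CPM in ducts and 51.1 to 182 CPM in the FVB/NJ adults. They had 94.4 (H) and 95.4 CPM (G) at day 12.5, 58.4 (F4) and 26.9 CPM (B4) at day 18.5 and 3.54 (F11) and 5.79 CPM (D6) in lactation. Outside the milk genes the lactation values were 15.6 and 26.6 CPM, still under the 90.03 and 42.3 CPM of day 18.5. The change to lactation was -1.42 ± 0.56 on the log2 scale (adjusted p = 0.246), and -3.19 with library totals (adjusted p = 0.00194).

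In ML cells Crabp2 was at 3.74, 10.97 and 5.195 CPM in the adult ML libraries and at 26.4 (H) and 19.4 CPM (G) at day 12.5, with no overlap, a log2 change of 1.86 ± 0.58 that missed the threshold with edgeR (adjusted p = 0.0755; DESeq2, 0.0390). In basal cells it changed by -0.76 ± 0.61, and the difference between ML and basal cells was 2.32 ± 0.48 (adjusted p = 0.00369). From day 18.5 to lactation the change in LP/alveolar cells was 2.97 lower on the log2 scale than in ML cells (SE 0.558, adjusted p = 0.0113; 1.17% of all genes called). ML cells had 21.6 (F4) and 12.96 CPM (B4) at day 18.5 and 11.9 (F11) and 56.7 CPM (D6) in lactation, so the stages overlapped, and the ML change ran from 0.188 without D6 to 2.409 without F11.

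Apod, a lipocalin of glia, fibroblasts and resting epithelium, went from high in the adult to near 0 at day 12.5 in LP/alveolar cells. It was at 599 (A10), 306 (P7) and 118 CPM (D12) in the FVB/NJ adult and at 0.269 (H) and 0.219 CPM (G) at day 12.5, 10265 against 13 UMIs. Day 18.5 had 0.349 (F4) and 0.187 CPM (B4), lactation 3.28 (F11) and 8.20 CPM (D6), and the post-involution gland 56.8 CPM. The step that chose the gene was -10.15 on the log2 scale. From day 18.5 to lactation the log2 difference was 6.13, or 4.37 with library totals, and the stages did not overlap. Few cells held Apod in lactation: 0.24% (F11) and 0.446% (D6) of thinned LP/alveolar cells were positive. In D6, 191 of 3815 cells held 100% of the 596 UMIs.

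Before pregnancy, Apod differed widely between libraries. Pre-pubertal LP cells had the highest level, 901 CPM (881 to 920), with 39.8% of thinned cells positive, day 5 LP cells 214 CPM, duct LP cells 107 CPM and TEB LP cells 10.6 CPM. Adult LP cells had 63.3 CPM in C57BL/6 and 6.21 CPM in SWISS, so the 3 strains spanned 6.21 to 599 CPM. The UMIs of Apod were unevenly spread: in A10, 5% of LP/alveolar cells held 79.8% of them, and in pre-pubertal LP cells 5% held 48.7%. Thinned cells with both Fabp3 and Apod made up 0.195% in A10, 0.341% in D6 and 0.294% after involution.

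Apod was also a transcript of fibroblasts and Schwann cells. Fibroblasts ran from 58.5 to 374 CPM over 12 libraries, at 306 CPM in F4 at day 18.5 and 374 (F11) and 148 CPM (D6) in lactation. Schwann cells had 1646 CPM in A10, 1182 CPM in the C57BL/6 adult and 811 CPM after involution, from 34 to 38 cells each, 336 CPM in P7 and 137 CPM in D6, against 14.7 to 22.6 CPM in the embryo, at day 5 and before puberty. In basal cells the change at no step was called; the values ran from 2.06 to 24.3 CPM over 16 libraries. Immune cells had 0 UMIs in all 4 libraries.

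Lcn2, which starves bacteria of iron, was found in LP cells at every virgin age. They had 1324 CPM at day 5, 3069 CPM before puberty, 3020 CPM in TEBs, 3966 CPM in ducts, 3349 CPM in the C57BL/6 adult and 1448 CPM in SWISS. In the FVB/NJ adult LP/alveolar cells had 5516 (A10), 4948 (P7) and 2769 CPM (D12), and at day 12.5 525 (H) and 518 CPM (G), a log2 difference of -2.76 in the step that chose members. At day 18.5 there were 1004 (F4) and 916 CPM (B4), in lactation 2142 (F11) and 600 CPM (D6), and after involution 3037 CPM. Outside the milk genes lactation stood at 9462 and 2753 CPM. The log2 change from day 18.5 to lactation was 2.22 ± 0.72 and missed the threshold with edgeR (adjusted p = 0.149), while DESeq2 called it (0.00415). It was 0.514 with library totals and ran from 1.06 without F11 to 2.81 without D6.

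Basal cells held Lcn2 at every stage. They had 1211, 1579 and 1105 CPM in the adult, 935 and 855 CPM at day 12.5, 1537 and 1319 CPM at day 18.5 and 1274 (F11) and 259 CPM (D6) in lactation, and no step was called. At day 12.5 the basal level was thus above the LP/alveolar one in both libraries, where in all 3 adult libraries it was below. The change from day 18.5 to lactation differed between LP/alveolar and basal cells by 2.76 ± 0.57 on the log2 scale (adjusted p = 0.0140; 1.83% of all genes called). It also differed between ML and basal cells by 3.00 ± 0.58 (adjusted p = 0.0353; 0.264% of all genes called). The ML change ran from 1.037 without F11 to 3.346 without F4, with edgeR not calling it and DESeq2 calling it (adjusted p = 0.0344). The basal change ran from -2.374 without F11 to 0.768 without D6, and the basal class of D6 held 955 CPM of immune markers outside the milk genes (10.8 and 13.6 CPM at day 18.5) and the endothelial markers given for Rbp7, whose part was not tested. Lcn2 in ML cells went from 242 (F4) and 98.8 CPM (B4) to 1023 (F11) and 214 CPM (D6), which overlap, though outside the milk genes (257.9 and 101 CPM, then 1455 and 314 CPM) they did not; 54.3% and 9.63% of thinned ML cells held Lcn2, against 48.8% and 6.85% of immune cells.

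Over all 140 sums of a library and class, each member was matched with the gene whose log2(CPM + 1) was most alike by Pearson's r. Sums of 1 library share its depth, so r is a description. Fabp3 was most like Wap (r = 0.951), a whey protein gene, then Olah (0.941), the thioesterase that ends milk fatty acid chains, and Glycam1 (0.920). Fabp4 was most like Gpihbp1 (0.841), which anchors lipoprotein lipase to capillaries, and Rbp7 was too (0.878), followed by Cd300lg (0.810) and Btnl9 (0.807). Crabp1 was most like Cdh11 (0.805), a mesenchymal cadherin, Crabp2 like Cldn1 (0.720), Lcn2 like Muc15 (0.736), Fabp5 like Nrp2 (0.677), Rbp4 like Epha3 (0.674) and Apod like Aldh1a3 (0.616), a retinaldehyde dehydrogenase.

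The other genes of lipid and retinoid handling were counted from lists. These lists were chosen with earlier results of these data known, so a count beside the share of all genes is a description only. Of 17 genes of fatty acid handling tested in LP/alveolar cells, 5 rose and 1 fell between adult and day 12.5 (13.1% of all genes called), with a median log2 change of 0.59 against 0.02 for all genes. The fatty acid transporter Cd36 rose by 7.11 ± 0.61 (adjusted p = 0.000323) and the lipase Lpl by 4.89 ± 0.81 (adjusted p = 0.00538). The retinoid pathway list had 0 up and 2 down of 12 tested, near the 13.1% of all genes, its members Aldh1a3 (-3.97 ± 0.68) and the receptor gene Rara (-2.53 ± 0.36). None of the 5 other lipocalins tested was called at that step.

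Between day 12.5 and day 18.5, 2 of the 17 genes of fatty acid handling rose in LP/alveolar cells (1.03% of all genes called): Acsl1 by 2.18 ± 0.42, an enzyme that activates fatty acids, and Gpihbp1 from 0 to 29 UMIs. Of the other lipocalins, Orm1 rose from 2 to 87 UMIs. In lactation against day 18.5, 4 rose and 1 fell (3.24% of all genes called), with Gpihbp1 up by 6.21 ± 0.55 and Pparg, the fat-cell receptor gene, from 2 to 80 UMIs. Gpihbp1 is a capillary gene and Pparg a fat-cell gene, and the endothelial and adipocyte markers given above for Fabp4 were also higher in lactation in the same LP/alveolar cells, whose part in these changes was not tested. Lrat, which esterifies retinol for storage, rose by 8.33 ± 0.61 (adjusted p = 0.000289), and of the acute-phase lipocalins Orm2 rose by 9.72 ± 0.98 and Orm1 by 6.95 ± 0.76. Rara rose by 1.64 ± 0.37 (adjusted p = 0.0426), which is less than the shift of 1.75 that library totals bring. In ML cells, 5 of 13 genes of fatty acid handling rose and 1 fell at the first step (8.9% of all genes called), Lpl by 5.15 ± 0.72 and Cd36 by 5.09 ± 0.68, and no listed gene was called later. In basal cells, Cd36 (5.93 ± 0.65) and Lpl (4.55 ± 0.57) rose at the first step and Gpihbp1 (6.11 ± 0.77) and Cd36 (3.54 ± 0.54) at the last, where endothelial markers in basal cells went from 4.56 and 7.66 CPM outside the milk genes at day 18.5 to 69.0 (F11) and 408 CPM (D6), whose part was not tested. Of the Lcn2 partner list, Slc22a17, Lrp2 and Mmp9, 1 gene was tested in each class and it was not called.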

How the data were processed

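The deposited values are UMI counts per gene and barcode, made by the authors with Cell Ranger (3.0.2 or 3.1.0 per the file headers) on mm10 and not normalized; total counts per library set the precision given with each level. Cells with more than 500 genes that passed the study's mitochondrial and upper limits were kept. No doublet caller was run, and an alternative left out the deepest 5% of cells. Cells were clustered in 4 sets with Seurat 5.3.0 (resolution 0.1), with the 9 genes, the lists and the milk genes kept out of the features, and named from marker genes. Counts were summed per library and class of 20 or more cells (140 sums). Stage steps were fitted with edgeR 4.0.16 (quasi-likelihood, TMM, filterByExpr) in R 4.3.3 over the 9 replicated FVB/NJ libraries, with DESeq2 1.42.0 as an alternative, and the fits were tested on simulated data. SE is the log2 change divided by the root of F. Shares of positive cells were taken after thinning each cell to 1500 UMIs. Groups with 1 library were not tested. All members are named; list genes named are those called with the largest change, up to 2 per list and step. The members and lists were chosen with earlier results of these data known. Likeness used genes with a mean of 5 CPM or more. One list and its result are not reported here.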

Additional observations from a re-analysis of the deposited data

Results flagged for a closer look

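For 5 of 55 member differences tested, the change between stages differed between epithelial classes in the fit over all 3 classes. That fit tested 14746 genes with edgeR and was chosen after seeing the data. The 55 pool comparisons that called 0.264% to 11.3% of all genes, so the pooled count has no single background share. From day 12.5 to day 18.5 no member was called. The shares of all genes there were 2.92% (LP/alveolar minus basal), 1.39% (LP/alveolar minus ML) and 0.414% (ML minus basal). For Lcn2 from pregnancy day 18.5 to lactation, the LP/alveolar change was 2.76 above the basal one on the log2 scale (SE 0.568, adjusted p = 0.0140; 1.83% of all genes called), and the ML change was 3.00 above it (SE 0.581, adjusted p = 0.0353; 0.264% of all genes called). The ML change alone ran from 1.037 without F11 to 3.346 without F4. The basal change alone ran from -2.374 without F11 to 0.768 without D6, whose basal class held 955 CPM of immune and 408 CPM of endothelial markers outside the milk genes. For Fabp5 from adult to day 12.5, the ML change was 2.05 above the basal one (SE 0.561, adjusted p = 0.0234; 11.3% of all genes called), where the basal change alone turned from -0.02 to 1.501 without A10. For Crabp2 at the same step, the ML change was 2.32 above the basal one (SE 0.476, adjusted p = 0.00369), in the comparison that called 11.3% of all genes. For Crabp2 from day 18.5 to lactation, the difference of the LP/alveolar and ML changes was -2.97 (SE 0.558, adjusted p = 0.0113; 1.17% of all genes called), where the ML change alone ran from 0.188 without D6 to 2.409 without F11 and the LP/alveolar one from -1.909 without D6 to -0.857 without F4. No group has 4 to 10 libraries, so single libraries were not screened for values that stand apart. P7 had barcodes of 14 bases, where the others had 16. Without P7, LP/alveolar calls over all genes went from 1760, 139 and 437 to 2758, 946 and 1047 at the successive steps.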

How the results depend on the processing

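Stages could not be paired because the replicate names do not repeat between groups. In the fit over all 3 classes, the sums of different classes came from the same libraries. The numbers of members called moved with the test and filter, and so did those over all genes. Tested were 9 members in basal cells, 6 in LP/alveolar cells at the later steps and 6 in ML cells. With DESeq2 the members called were 2, 2 and 3 in basal cells (adult to day 12.5, to day 18.5, to lactation), beside 654, 178 and 340 of all 13307 genes. They were 5 in LP/alveolar cells in lactation (866 of 13473 genes). In ML cells they were 3 and 4 at the first and last steps (1098 and 79 of 9544 genes). With no count filter they were 2, 3 and 4 in basal cells (1053, 352 and 577 of 20585 genes). They were 1 and 5 in LP/alveolar cells at the later steps (921 and 1292 of 20352 genes) and 3, 1 and 4 in ML cells (1644, 132 and 252 of 18788 genes). With library totals they were 2 in basal cells in lactation (132 of 13307 genes) and 2 in ML cells at day 12.5 (854 of 9544 genes). They were then 4 in LP/alveolar cells in lactation (Crabp2 also, downward), beside 10073 of 13473 genes. With cells of 1000 or more genes they were 2 in basal cells in lactation (97 of 12902 genes). With the milk genes removed, or without the deepest 5% of cells, no number of members called moved. Leaving out each library in turn gave 0 to 1, 0 to 1 and 0 to 3 in basal cells, 0 to 4 in LP/alveolar cells in lactation (4 without A10 or P7, where Fabp5 was called as well), and 1 to 3 and 0 to 3 in ML cells at the first and last steps. 

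Several small log2 changes that were not called turned sign. In basal cells these were Apod in lactation (-3.035 to 0.633, the highest without D6; 0.273 without B4), Crabp2 in lactation (-1.404 to 0.351, the highest without F4), Lcn2 in lactation (0.35 with cells of 1000 or more genes, and -2.374 without F11 to 0.768 without D6) and Fabp5 at day 12.5 (0.007 with milk genes removed, 0.035 without the deepest cells, and -0.435 without D12 to 1.501 without A10). In ML cells they were Fabp3 at day 18.5 (-0.526 without F4 to 1.763 without B4), Fabp4 at day 12.5 (-0.081 without D12 to 2.107 without A10), Lcn2 at day 12.5 (-0.066 with no filter, and -0.269 without P7 to 0.446 without D12) and Lcn2 at day 18.5 (0.049 with library totals, and -0.853 without F4 to 0.427 without B4). The cause was not tested. Over all genes, DESeq2 and the fit with no filter called more at most steps. In basal cells the calls were 165 (654 with DESeq2, 1053 with no filter, 288 with cells of 1000 or more genes) at day 12.5, 0 (178, 352 and 12) at day 18.5 and 115 (340 with DESeq2, 577 with no filter) in lactation. In LP/alveolar cells they were 1760 (2858 with no filter), 139 (751 with DESeq2, 921 with no filter, 223 with library totals) and 437 (866, 1292 and 10073). In ML cells they were 849 (1644 with no filter), 0 (69 with DESeq2, 132 with no filter, 3 without the deepest cells) and 2 (79 with DESeq2, 252 with no filter, 4 with library totals, and 1 with milk genes removed, without the deepest cells or with cells of 1000 or more genes). Leaving out each library in turn gave 1 to 730, 0 to 168 and 0 to 262 calls in basal cells, 175 to 2758, 0 to 946 and 28 to 1047 in LP/alveolar cells and 146 to 1354, 0 to 98 and 0 to 61 in ML cells.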
